A study of Mus musculus with 3 samples.

Results

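The 10 genes described here encode the BCL2 family members Bax, Bak1, Bbc3, Pmaip1, Bcl2l11, Bcl2, Bcl2l1 and Mcl1, the apoptosome scaffold Apaf1 and the death receptor Fas. They were chosen by symbol from the 32285 genes of the deposited count tables, and each symbol named 1 row. The cells came from organoids, 3-dimensional epithelial cultures, started from submandibular salivary glands taken from 4 C57BL/6 mice aged 8 to 12 weeks, and kept in a medium with Wnt3a, R-spondin1, EGF, FGF2, insulin, dexamethasone and the ROCK inhibitor Y27632. The control group was not irradiated, the photon group received 7 Gy of photons and the proton group 7 Gy of plateau protons, both given on culture day 5. All 3 groups were collected on day 11, 6 days after irradiation, dissociated with trypsin, sorted for cells that excluded propidium iodide, and sequenced by the 10x Genomics 3' single-cell method. Each group is 1 library, in which the animal behind a cell is not labelled. Cells that had already died and taken up the dye before the sort are therefore outside these data.

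Apoptosis by the mitochondrial route turns on the balance inside the BCL2 family. Bax and Bak open pores in the outer mitochondrial membrane, Bcl-2, Bcl-xL (from Bcl2l1) and Mcl-1 hold them in check, and the BH3-only proteins Puma (Bbc3), Noxa (Pmaip1) and Bim (Bcl2l11) tip the balance towards death. Cytochrome c released through the pores assembles with Apaf-1 into the apoptosome, which activates caspase-9, whereas Fas starts caspase-8 activation from the cell surface. Bax, Bbc3, Pmaip1, Apaf1 and Fas are known targets of p53, the transcription factor that responds to DNA damage. Mcl-1 protein and its mRNA are short-lived.

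After filtering, the libraries held 13219 control, 15041 photon and 13956 proton cells, with 36692939 to 46936995 UMIs (unique molecular identifiers, each counting 1 captured transcript) per library. Median UMIs per cell were 2757 in control, 2808 in photon and 2223 in proton. All 6 epithelial markers checked (Epcam, Krt8, Krt18, Krt5, Krt14 and Cdh1) were above 5 CPM (UMIs of a gene per 1000000 UMIs of its library) in every library. Markers of fibroblasts, immune cells and endothelium summed to between 0.409 and 2.21 CPM per list, none of them reached 5 CPM, and the 3 haemoglobin genes were at 0 in each library. Between 107 and 116 kept cells of a library carried a barcode that another library also held. Mitochondrial genes took 3.29%, 2.23% and 1.80% of UMIs in control, photon and proton, and the nuclear RNA Malat1 stood at 0.613 times control in photon and 0.409 times in proton. Neat1, another nuclear RNA, ran differently, at 0.453 times control in photon and 0.959 times in proton. With 1 library per group there is no replicate check, so no difference was tested. Ranges in parentheses are 95% counting intervals, which do not cover the spread between cultures or library preparations. A gene was called higher or lower at a fold of at least 1.5 with a mean of at least 5 CPM over the compared libraries, and all 10 genes passed that level in each comparison.

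In the photon library 1 of the 10 genes, Bax, was called higher than in control and 0 were called lower, against 16.8% of 10090 genes called in either direction 7.37% higher and 9.45% lower. In the proton library 5 were higher (Apaf1, Bcl2, Bcl2l1, Bak1 and Bcl2l11) and 1 was lower (Mcl1), against 29% of 10211 genes called in either direction, 14.2% higher and 14.9% lower. Between the irradiated libraries 4 were higher in proton (Apaf1, Bcl2, Bcl2l1 and Bcl2l11) and 3 were lower (Mcl1, Pmaip1 and Bbc3), against 36.2% of 10157 genes, 22.2% higher and 14% lower. The proton over photon call of Bcl2l1 was lost on scaling by the median of gene ratios (1.43-fold), with cells weighted equally (1.48-fold) and with marker classes weighted equally (1.39-fold). Bcl2l11 lost its call under the same settings (1.37-fold, 1.42-fold and 1.31-fold) and, with the deepest cells left out, at a log2 ratio of 0.56. The median log2 ratio of the 10 genes was 0.19 in photon and 0.54 in proton over control, beside -0.12 and 0.03 for all genes tested. Proton over photon it was 0.15, beside 0.12. Among genes with a mean of at least 25 CPM the counts were 1 higher and 0 lower of 4 in photon (background 13.9% called, 5.75% higher, 8.19% lower) and 4 higher and 1 lower of 6 in proton (25.7%, 10.8%, 14.9%). Proton over photon they were 4 higher and 1 lower of 6 (39%, 22.7%, 16.3%). Both irradiated libraries were set against the same control, so the 2 sets of ratios to control share it.

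**Figure D1:**
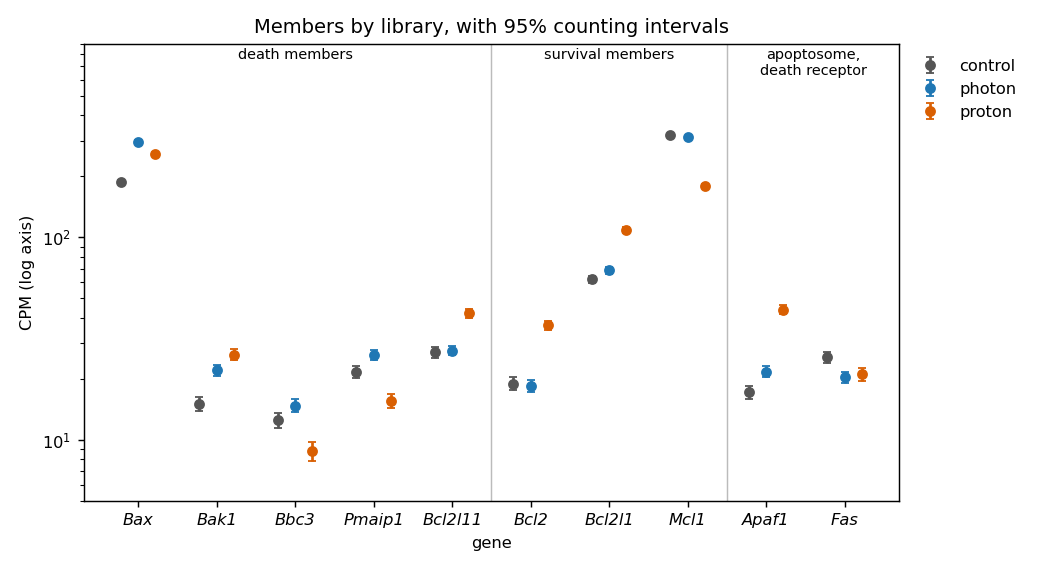
Level of each gene in CPM (log axis) in the control, photon and proton libraries; points are 1 library each and bars are 95% counting intervals. Bax is higher in both irradiated libraries, Mcl1 is low in proton alone at 179 CPM, and Apaf1, Bcl2 and Bcl2l1 are highest in proton.

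Of the 2 pore-forming proteins, Bax (ENSMUSG00000003873, chromosome 7, 45461697 to 45466898, minus strand, GRCm38) stood at 188 CPM (184 to 192) in control, 297 CPM (292 to 302) in photon and 257 CPM (252 to 262) in proton. Its ratio to control was 1.58 (1.54 to 1.62) in photon and 1.37 (1.33 to 1.41) in proton, and proton stood at 0.866 times photon (0.843 to 0.889). The 3 intervals did not overlap, and control was the lowest. In photon the Bax ratio lay above that of 93.7% of genes tested. Bak1 (ENSMUSG00000057789, chromosome 17, 27019810 to 27029009, minus strand) stood at 15.1 (control), 22.1 (photon) and 26.3 CPM (proton). It was 1.46-fold higher than control in photon (1.32 to 1.62), just under the fold that counts here, and 1.74-fold higher in proton (1.57 to 1.94). Both pore formers were thus above control in both irradiated libraries, with Bax highest in photon and Bak1 highest in proton. Bak1 overlaps the antisense gene Ggnbp1, at 2.34 to 4.10 CPM and lowest in proton, and its value is uncertain to that extent, since the strand setting of the counting is not stated. On scaling by the median of gene ratios Bak1 was 1.62-fold higher in photon and was called.

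The BH3-only genes did not move together. Bbc3 (ENSMUSG00000002083, chromosome 7, 16308393 to 16318205, plus strand) stood at 12.5 (control), 14.7 (photon) and 8.78 CPM (proton). Photon was 1.18 times control (1.05 to 1.33), proton 0.703 times control (0.609 to 0.811) and 0.596 times photon (0.521 to 0.681). Pmaip1 (ENSMUSG00000024521, chromosome 18, 66458533 to 66465565, plus strand) showed nearly the same ratios, with 21.6 (control), 26.1 (photon) and 15.6 CPM (proton). It stood at 1.21 times control in photon (1.11 to 1.32), 0.722 times control in proton (0.648 to 0.804) and 0.596 times photon in proton (0.539 to 0.659). For both genes photon was highest and proton lowest, and neither ratio to control passed 1.5-fold. Bcl2l11 (ENSMUSG00000027381, chromosome 2, 128126038 to 128162547, plus strand) had the other order, with 27.0 (control), 27.6 (photon) and 42.1 CPM (proton). Control and photon overlapped, with a ratio of 1.02 (0.941 to 1.11), while proton was 1.56-fold higher than control (1.44 to 1.69) and 1.53-fold higher than photon (1.42 to 1.64).

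Bcl2l11 sat close to the threshold. Its proton ratio to control was 1.42 with each cell weighted equally and 1.41 with the mixture of marker classes held equal, so under both of these it was not called.

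**Figure D2:**
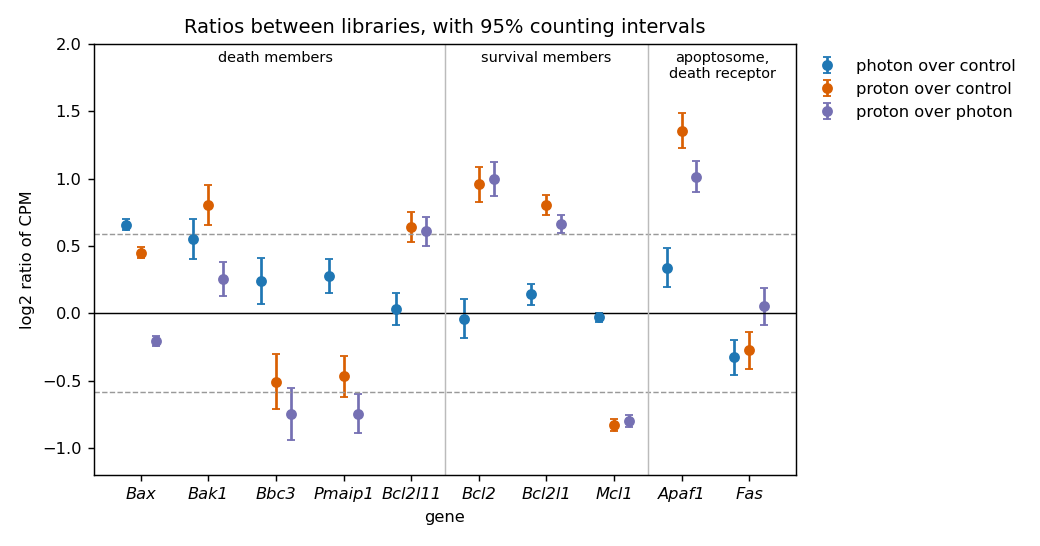
Log2 ratio of CPM for each gene, photon over control, proton over control and proton over photon, with 95% counting intervals; dashed lines mark 1.5-fold. Photon over control passes the line for Bax alone, whereas proton over control passes it upwards for Bak1, Bcl2l11, Bcl2, Bcl2l1 and Apaf1 and downwards for Mcl1.

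Among the survival genes, Mcl1 (ENSMUSG00000038612, chromosome 3, 95658788 to 95663176, plus strand) stood at 318 CPM (313 to 324) in control, 312 CPM (307 to 317) in photon and 179 CPM (175 to 183) in proton. Control and photon overlapped, with a ratio of 0.980 (0.957 to 1.00), and proton was far below both, at 0.563 times control (0.546 to 0.580) and 0.574 times photon (0.558 to 0.591). Its proton ratio to control lay above that of only 7.58% of genes tested. The other 2 survival genes went the opposite way in proton. Bcl2 (ENSMUSG00000057329, chromosome 1, 106538178 to 106714274, minus strand) stood at 18.9 (control), 18.4 (photon) and 36.7 CPM (proton). That is a ratio to control of 0.972 in photon (0.881 to 1.07) and 1.94 in proton (1.77 to 2.12). Bcl2l1 (ENSMUSG00000007659, chromosome 2, 152780668 to 152831728, minus strand) stood at 62.2 (control), 68.5 (photon) and 109 CPM (proton). It was 1.10 times control in photon (1.04 to 1.16) and 1.75 times control in proton (1.66 to 1.84).

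Apaf1 (ENSMUSG00000019979, chromosome 10, 90989311 to 91082770, minus strand), whose product nucleates the apoptosome, stood at 17.2 CPM (15.9 to 18.5) in control, 21.7 CPM (20.4 to 23.1) in photon and 43.9 CPM (41.8 to 46.1) in proton. The 3 intervals were separate, with control lowest and proton highest. Photon was 1.27 times control (1.15 to 1.40), and proton was 2.56 times control (2.34 to 2.80) and 2.02 times photon (1.87 to 2.19). The proton ratio to control was larger than that of 97.2% of genes tested and was the largest among the 10. Fas (ENSMUSG00000024778, chromosome 19, 34290666 to 34327772, plus strand), the receptor for Fas ligand, was lower than control in both irradiated libraries with intervals below 1, though neither ratio was called. It stood at 25.5 CPM (24.0 to 27.1) in control, 20.3 CPM (19.1 to 21.7) in photon and 21.1 CPM (19.6 to 22.6) in proton. The ratios to control were 0.798 (0.729 to 0.872) and 0.826 (0.751 to 0.908), and the 2 irradiated libraries overlapped.

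Promoter sequence was examined because several of these genes are known p53 targets. RefSeq start-site windows (GRCm38.p6) were found for 9 of the 10 genes, 14 windows in all, each running from 250 bases before the start to 50 after it. A p53 site was searched as 2 adjacent half-sites of the p53 consensus, 20 bases in all, with the central C and G of both half-sites intact and at most 3 other mismatches, a limit set with the Bbc3 window in view. By that rule 1.38% of 32851 windows of the same length hold a site, and among the 14 windows 1 did, in Bbc3. The site lies 97 bases before the start, at chr7:16309486-16309505 on the plus strand, inside an intron of a longer annotated Bbc3 transcript. In the stretches below, which hold no annotated untranslated bases, it is in capitals. Bbc3 is shown for the match, Bax as the gene called higher in photon, and Apaf1 and Mcl1 as the highest and lowest of the 10 in proton over control.
Bbc3, chr7:16309333-16309582, plus strand: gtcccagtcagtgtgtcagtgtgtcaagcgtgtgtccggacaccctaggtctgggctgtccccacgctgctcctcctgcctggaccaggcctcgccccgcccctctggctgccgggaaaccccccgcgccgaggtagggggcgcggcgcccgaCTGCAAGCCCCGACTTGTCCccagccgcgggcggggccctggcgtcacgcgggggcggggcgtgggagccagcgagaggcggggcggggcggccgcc
Bax, chr7:45466899-45467148, minus strand: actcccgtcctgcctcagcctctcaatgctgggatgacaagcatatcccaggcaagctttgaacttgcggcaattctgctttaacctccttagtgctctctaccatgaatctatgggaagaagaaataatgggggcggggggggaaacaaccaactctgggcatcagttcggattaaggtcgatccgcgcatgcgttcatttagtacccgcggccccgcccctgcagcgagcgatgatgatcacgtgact
Apaf1, chr10:91082771-91082939, minus strand: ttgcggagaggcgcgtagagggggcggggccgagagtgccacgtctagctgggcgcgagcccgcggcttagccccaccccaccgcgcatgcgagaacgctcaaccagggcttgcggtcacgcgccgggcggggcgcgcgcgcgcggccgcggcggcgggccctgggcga
Mcl1, chr3:95658471-95658720, plus strand: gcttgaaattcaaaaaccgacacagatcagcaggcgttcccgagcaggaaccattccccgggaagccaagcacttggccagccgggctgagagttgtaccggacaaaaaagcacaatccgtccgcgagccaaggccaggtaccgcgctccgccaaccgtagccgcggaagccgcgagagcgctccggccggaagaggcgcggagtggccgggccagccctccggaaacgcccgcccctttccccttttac
The Apaf1 stretch, which is shorter at 169 bases, has 78.7% G and C with 30 CpG. In the others, of 250 bases each, Bbc3 has 76.4% with 27, Mcl1 64.4% with 26 and Bax 54% with 14. The AP-1 motif TGANTCA, searched on both strands, was found in 1 of the 14 windows, at chr19:34290448-34290454 in Fas, and in 7.81% of all windows. The interferon-response motif (GAAA, any 2 bases, GAAA) and the CRE motif TGACGTCA were in 0 of the 14 and in 3.44% and 1.79% of all windows. These are matches of letters in short windows and say nothing of binding.

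Summed over members, survival transcripts (Bcl2, Bcl2l1 and Mcl1) stood at 399 (control), 399 (photon) and 324 CPM (proton). Death transcripts (Bax, Bak1, Bbc3, Pmaip1 and Bcl2l11) stood at 264, 387 and 350 CPM. Survival over death was 1.51 in control, 1.03 in photon and 0.928 in proton. Relative to control the quotient was 0.681 in photon (0.659 to 0.703) and 0.614 in proton (0.592 to 0.636), and proton over photon it was 0.901 (0.872 to 0.931). In photon the lower quotient came with a 1.47-fold higher death sum and a survival sum at 0.998 times control. In proton the death sum was 1.32 times control and the survival sum 0.812 times control. Most of the death UMIs were Bax, 7429 of 10437 in control, 13934 of 18181 in photon and 9428 of 12829 in proton. No quotient was computed without Bax.

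Mcl1 made up most of the survival sum, and leaving it out turned the proton result. Without Mcl1 the survival sum was 81.2 (control), 86.9 (photon) and 145 CPM (proton). The quotient relative to control was then 0.731 in photon (0.693 to 0.770) but 1.35 in proton (1.29 to 1.42), and proton over photon it was 1.85 (1.77 to 1.94). The Bcl2 to Bax quotient of UMIs was 0.101 (control), 0.0620 (photon) and 0.143 (proton). The Bcl2l1 to Bax quotient was 0.331, 0.231 and 0.423. The Mcl1 to Bax quotient was 1.69, 1.05 and 0.696. Against the same pore former, Mcl1 was thus lowest in proton, and Bcl2 and Bcl2l1 were lowest in photon. The quotients compare transcript counts between libraries and are not ratios of protein. They also set genes of unlike annotated length against each other, and proton over photon ratios of all genes ran with length, as given below. Centred on genes of like length, proton over photon was 1.21 for Bcl2, 1.17 for Bcl2l1, 0.737 for Mcl1 and 1.06 for Bax. No quotient was centred in that way.

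**Figure D3:**
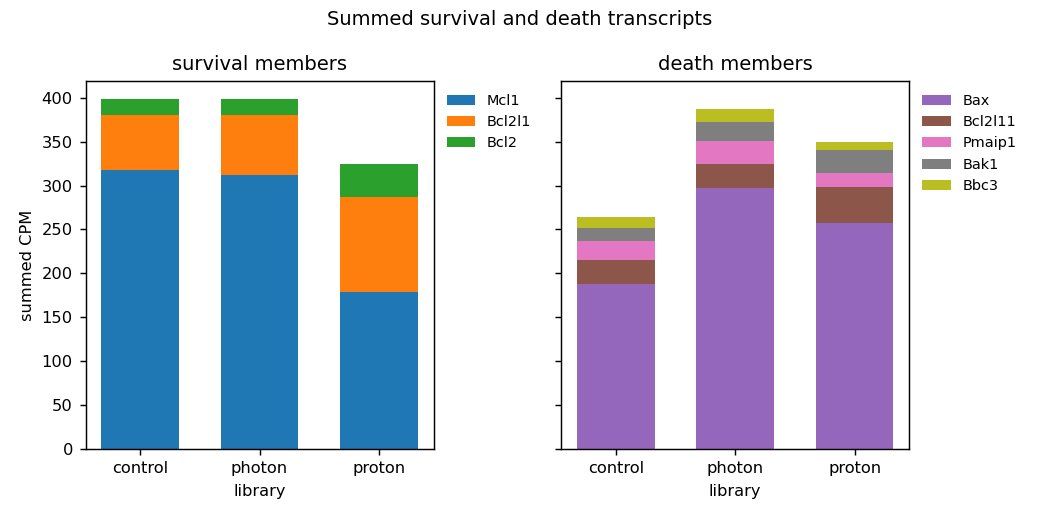
Summed CPM of the survival members (left) and death members (right) in each library, stacked by gene, with no error bars. Survival sums are 399, 399 and 324 CPM and death sums 264, 387 and 350 CPM, and Mcl1 and Bax make up most of each bar.

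The genes called between the 2 irradiated libraries were divided by annotated length. The 4 genes called higher in proton than photon span 36.5 kb (Bcl2l11), 51.1 kb (Bcl2l1), 93.5 kb (Apaf1) and 176 kb (Bcl2). The 3 called lower span 4.39 kb (Mcl1), 7.03 kb (Pmaip1) and 9.81 kb (Bbc3). Fas, at 37.1 kb, and Bax and Bak1, at 5.20 and 9.20 kb, were not called. All genes showed the same gradient. The median log2 ratio of proton over photon climbed from -0.36 in the shortest of 10 equal length classes, which holds Mcl1, to 0.54 in the class that holds Apaf1 and 0.72 in the longest, which holds Bcl2. With each ratio centred on the median of its length class, 0 of the 10 genes were called between proton and photon. Centred values were -0.44 for Mcl1, -0.46 for Pmaip1, -0.52 for Bbc3, 0.23 for Bcl2l1, 0.28 for Bcl2, 0.36 for Bcl2l11 and 0.48 for both Apaf1 and Bak1.

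Over control, the length gradient was smaller, with class medians from -0.19 to 0.37 in proton and from 0.14 down to -0.34 in photon. After centring, Apaf1 in proton was still 2.16-fold above its length class, Bak1 1.97-fold, Bcl2l1 and Bax 1.56-fold and Bcl2l11 1.51-fold, and Mcl1 stood at 0.634 times it. Bcl2 came to 1.499-fold and was not called. In photon the centred ratio of Apaf1 was 1.58, past the threshold, and that of Bax was 1.49, under it. The sources used here do not say whether intronic reads were counted, and the part of gene length in these ratios was not tested.

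**Figure D4:**
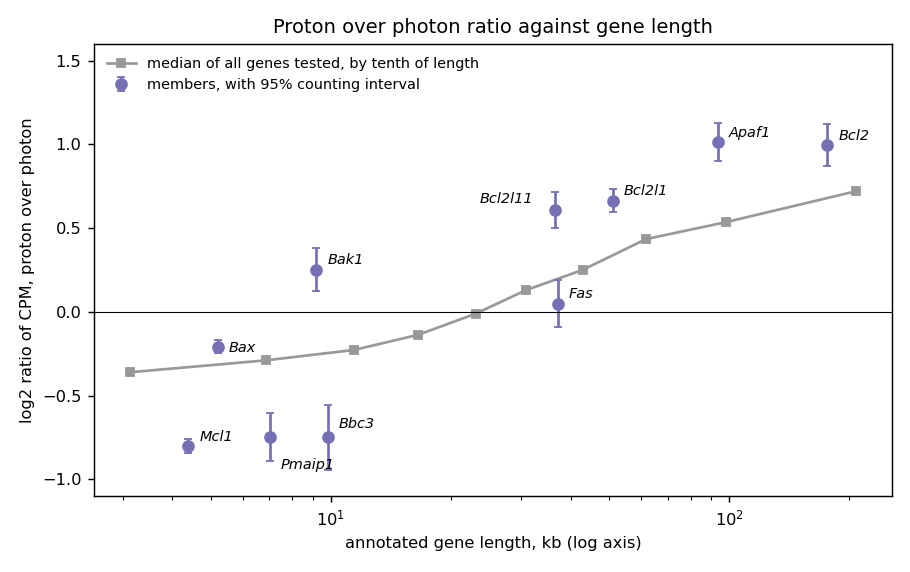
Log2 ratio of CPM, proton over photon, against annotated gene length in kb (log axis); circles are the 10 genes with 95% counting intervals, and squares are medians of all genes tested in each of 10 length classes. The squares climb from -0.36 to 0.72, the long genes Bcl2 and Apaf1 lie near 1.0, and Mcl1, Pmaip1 and Bbc3 lie below -0.7.

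Cells were then gated by 1 marker at a time, with at least 2 UMIs of Krt14 (a basal keratin), Cldn4 (a luminal claudin), Krt13 (a squamous keratin), Top2a (a topoisomerase of cycling cells) or Vim (the intermediate filament vimentin). The Krt14 gate held 8107 control, 9862 photon and 5706 proton cells, which is 61.3%, 65.6% and 40.9% of each library. The Cldn4 gate held 1530, 1354 and 925 cells and the Krt13 gate 227, 373 and 216. Control had few cells in the Top2a gate (97, against 669 photon and 443 proton) and in the Vim gate (61, against 599 and 260), so their control values rest on few UMIs. Gates overlap, and 80.6% to 100% of the cells in the Krt13, Top2a and Vim gates also passed another gate. For the Cldn4 gate that share was 64.3% in control, 49.7% in photon and 32.8% in proton, so its make-up differed between libraries. For the Krt14 gate it was 14.2%, 20.3% and 16.7%. Gated cells were deeper than the others, with a median of 3122 against 1568 UMIs inside and outside the Krt14 gate in control.

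Within gates, Mcl1 was lower in proton than in photon in all 5, at 0.539 to 0.645 times photon, with every interval below 1. Apaf1 was higher in proton than in photon in all 5 gates, 1.79-fold to 1.97-fold, with 4 intervals above 1. The gates are overlapping parts of the same libraries, and their ratios were not centred by gene length. Over all cells the median log2 ratio of proton over photon was 0.54 in the length class of Apaf1 and -0.36 in that of Mcl1. Centred on these, Apaf1 stood at 1.39 and Mcl1 at 0.737 times photon, and neither was called. In the Krt14 gate Apaf1 stood at 15.0 (control), 19.4 (photon) and 36.4 CPM (proton), and in the Cldn4 gate at 16.3, 21.5 and 38.7 CPM. Bcl2 was likewise above control in proton in all 5 gates, 1.82-fold to 2.46-fold, and 3 of the 5 intervals lay above 1. Bak1 was 1.62-fold to 2.79-fold higher in proton than in control across the gates, with 4 of 5 intervals above 1. Against control, Mcl1 in proton was called lower in 4 gates, and in the Vim gate its ratio was 0.823 (0.638 to 1.07). The share of all genes called within each gate is not given here.

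Other genes differed between gates. The highest Bax levels in both irradiated libraries were in the Cldn4 gate, at 391 CPM (374 to 408) in photon and 332 CPM (314 to 352) in proton against 220 CPM (209 to 232) in control. In the Top2a gate Bax stood at 234 (control), 256 (photon) and 213 CPM (proton), and control overlapped both, while proton was 0.833 times photon (0.743 to 0.933). Among the gates, Bcl2l1 was also highest in Cldn4-gated cells, with 66.6 (control), 93.2 (photon) and 147 CPM (proton). There it was 1.40-fold higher in photon (1.23 to 1.59) and 2.20-fold higher in proton (1.93 to 2.50). Cells that passed no gate held 84.6 (control), 112 (photon) and 137 CPM (proton) of Bcl2l1. That was more than in Cldn4-gated cells in control and photon, and less in proton. In the Krt13 gate Bcl2l1 was 36.1 to 44.9 CPM in the 3 libraries, with overlapping intervals. Among the gates, Bcl2l11 in proton was likewise highest in the Cldn4 gate, at 55.2 CPM, and lowest in the Top2a gate, at 21.5 CPM. Proton cells that passed no gate held 56.2 CPM of Bcl2l11.

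Mcl1 had its highest level in the Krt13 gate of control, at 614 CPM (572 to 659), against 390 CPM (362 to 419) in photon and 222 CPM (194 to 254) in proton. Photon was here 0.635 times control (0.573 to 0.703), whereas in the Krt14, Cldn4 and Top2a gates photon was 0.970, 0.943 and 0.963 times control. In the Vim gate photon was above control for Mcl1, at 1.28 times (1.02 to 1.62), from 84 control UMIs. Pmaip1 showed the same order in Krt13-gated cells, with 40.2 (control), 24.4 (photon) and 13.4 CPM (proton), from 51, 46 and 13 UMIs. In Krt14-gated cells photon was instead the highest for Pmaip1, at 26.0 CPM against 19.9 CPM in control and 15.3 CPM in proton. Bbc3 was lowest against photon in the Cldn4 gate, where proton had 9.19 CPM and photon 21.9 CPM, or 0.421 times (0.277 to 0.623).

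For Fas the Krt14 gate was the 1 gate of 5 whose ratios to control had intervals below 1. The level there was 24.9 CPM (23.1 to 26.8) in control, 17.5 CPM (16.2 to 19.0) in photon and 16.7 CPM (14.9 to 18.7) in proton. Photon was 0.704 times control (0.632 to 0.785) and proton 0.671 times control (0.587 to 0.767). In Cldn4-gated cells the corresponding levels were 17.5, 18.7 and 22.8 CPM, with ratios to control of 1.07 (0.810 to 1.41) and 1.3 (0.971 to 1.74). Krt13-gated, Top2a-gated and Vim-gated cells held 5 to 41 Fas UMIs per library, at 7.96 to 13.5 CPM.

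**Figure D5:**
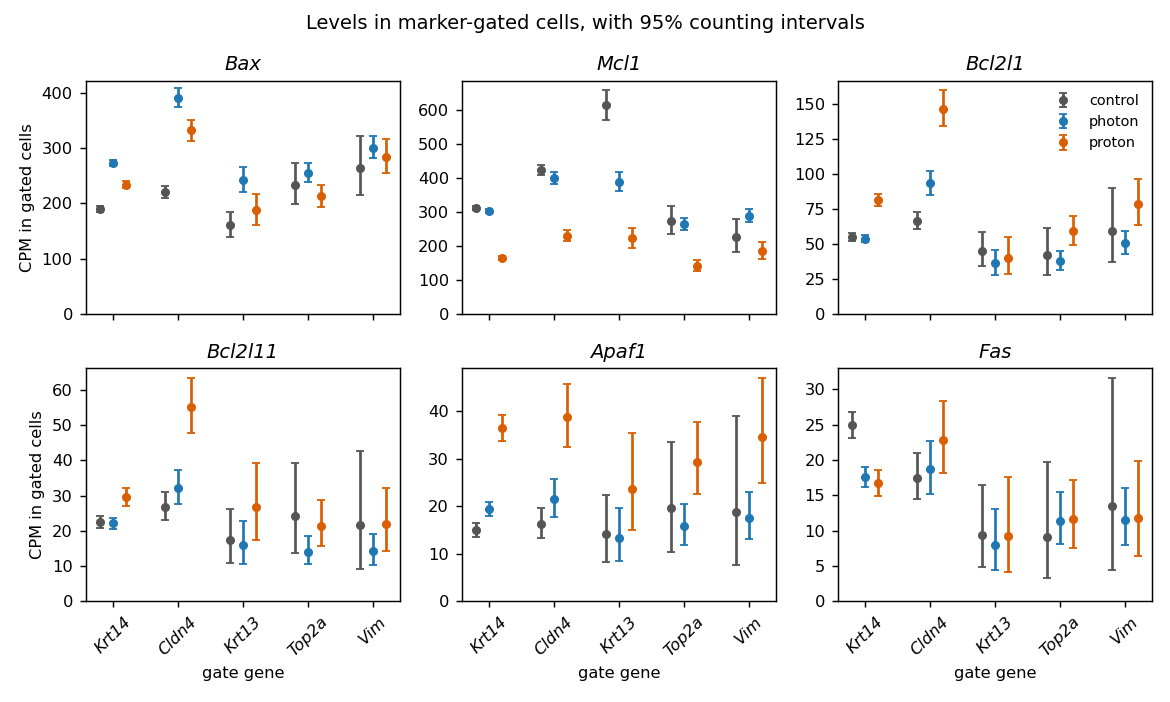
CPM of 6 of the genes in cells with at least 2 UMIs of Krt14, Cldn4, Krt13, Top2a or Vim, by library, with 95% counting intervals. Mcl1 is lowest in proton in each gate, and Apaf1 is highest in proton in each gate. Among these gates, Bcl2l1 and Bax are highest in Cldn4-gated cells in both irradiated libraries.

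Cells that passed none of the 5 gates made up 34.0% of control, 29.4% of photon and 53.5% of proton, at medians of 1289, 1831 and 1710 UMIs. Bax in these cells stood at 162 (control), 354 (photon) and 274 CPM (proton), 2.19-fold (2.05 to 2.34) and 1.69-fold (1.59 to 1.80) above control. In control they held less Bax than the gated cells, at 0.829 times, and in photon more, at 1.25 times. Bcl2l11, Bcl2l1 and Apaf1 were higher in them than in gated cells of every library, with ratios of 1.73 to 2.00, 1.5 to 1.93 and 1.44 to 1.61. So were Bcl2 (1.20 to 1.32), Fas (1.21 to 1.68) and Bbc3 (1.28 to 1.36), with every interval above 1. Bak1 was lower in them in photon and proton, at 0.776 and 0.810 times. These ratios were not centred by gene length. With the shares of 6 exclusive marker classes held equal between libraries, the proton ratio to control was 2.34 for Apaf1, 1.86 for Bcl2 and 0.569 for Mcl1, and the photon ratio of Bax was 1.62. Proton over photon, Bcl2l1 then stood at 1.39 and Bcl2l11 at 1.31, both under the threshold. The classes rest on marker UMIs, and Krt14 itself stood at 1536 (control), 2100 (photon) and 816 CPM (proton). A change in marker level or depth thus cannot be told apart here from a change in cell mixture.

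Cells were also split by Isg15, an interferon-induced gene, and by Cdkn1a, the p53 target that encodes p21, again at 2 UMIs. Isg15-positive cells made up 2.53% of control, 63.4% of photon and 38.4% of proton. Against the other cells of their library they held more Bax in all 3, at 1.25 times in control (1.12 to 1.40), 1.12 times in photon (1.07 to 1.16) and 1.22 times in proton (1.17 to 1.27). In the irradiated libraries they held less Apaf1, at 0.703 times in photon (0.616 to 0.804) and 0.751 times in proton (0.680 to 0.830), and less Bcl2l11, at 0.678 and 0.796 times. Pmaip1, at 0.841 and 0.812 times, and Bcl2l1, at 0.839 and 0.900 times, were lower too, with intervals below 1. Bak1 was 1.32 times (1.13 to 1.54) in photon and 1.01 times in proton. These ratios were not centred by gene length. Mcl1 was level, at 1.01, 0.997 and 1.01 times in control, photon and proton. Fas was 0.850 times (0.737 to 0.982) in photon and 0.834 times (0.722 to 0.963) in proton. Isg15-positive cells were deeper, with a median of 3360 against 1949 UMIs in photon.

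Bax was higher in Cdkn1a-positive cells by nearly the same ratio in every library, 1.54 (1.45 to 1.62) in control, 1.51 (1.46 to 1.56) in photon and 1.5 (1.43 to 1.58) in proton. Within Cdkn1a-positive cells it stood at 267 (control), 390 (photon) and 358 CPM (proton). Bbc3 and Pmaip1 were higher there too, with ratios of 1.31 to 1.57 and 1.27 to 1.44, as was Mcl1 at 1.14 to 1.29. Bcl2l11 was 1.22 to 1.44 times, and Apaf1 was 1.22 (0.995 to 1.49), 1.31 and 1.24 times in control, photon and proton. Fas was 1.03 times (0.867 to 1.23) in control but 1.31 and 1.27 times in photon and proton. Bcl2l1 was 1.15 times in control but 1.43 and 1.40 times in photon and proton. Bcl2 did not differ beyond counting error between Cdkn1a-positive and other cells, at 0.849 (0.680 to 1.05), 1.00 (0.864 to 1.16) and 0.976 (0.838 to 1.13) times, nor did Bak1, at 1.00, 0.919 and 1.10 times. The Cdkn1a-positive cells had medians of 3533 to 4072 UMIs, above the 2110 to 2659 of the other cells.

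To compare shares of cells with a UMI at equal depth, each cell was thinned to 2000 UMIs, which removed shallower cells (3599 control, 4150 photon, 6017 proton). Bax was then found in 31.6% of control (30.7% to 32.6%), 43.0% of photon (42.0% to 43.9%) and 38.3% of proton cells (37.2% to 39.3%). Mcl1 was found in 44.1%, 44.8% and 28.9% of cells. Apaf1 was found in 2.82% (2.50% to 3.17%), 4.04% (3.68% to 4.43%) and 7.89% (7.30% to 8.50%), with a mean of 1.04, 1.04 and 1.09 UMIs in the cells that held it. At like shares this mean differed between genes. In control, Fas was found in 4.83% of cells with a mean of 1.12 UMIs, and Bcl2l11 in 4.69% with 1.03. How the transcripts of a gene were spread over cells was not tested. Before thinning the shares for Bax were 37.4%, 52.7% and 42.1%, for Mcl1 50.7%, 54.3% and 33.0%, and for Apaf1 4.80%, 6.30% and 10.0%. A death transcript without any survival transcript was seen in 19.0%, 23.4% and 26.0% of thinned cells, and a survival transcript without any death transcript in 30.5%, 24.7% and 22.8%. No cell type that should lack these genes was present, so no background share from free RNA was measured.

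Genes whose levels ran most alike were sought over 18 sums, the 6 exclusive marker classes in each of the 3 libraries, by Pearson's r of log2(CPM + 1) among 8530 other genes. These sums share libraries, depth and class, and they were not centred by gene length, so r is a description only. Apaf1 ran most like the kinase gene Csnk1g1 (r = 0.96), Ankfy1 and the exocyst gene Exoc4, and Exoc4 stood at 401, 445 and 1037 CPM across the libraries in that order. Bcl2 ran most like Arhgap35 (0.98), Kirrel and Abhd2, and Bcl2l11 most like Adcy2 (0.97), Slc25a21 and Arap2. Mcl1 ran most like the phosphatase gene Ppp2ca (0.97), the chemokine Cxcl1 (0.96) and the immediate early gene Ier2 (0.95). Cxcl1 stood at 171, 151 and 48.9 CPM and Ier2 at 137, 127 and 64.0 CPM. Bax ran most like Sncg (0.91), Plin2 and Prkcsh, Bak1 most like Plp2 (0.88), Bbc3 most like Whamm (0.87), and Pmaip1 most like Bet1 (0.91). Bcl2l1 was closest to Celf2 (0.95) and Fas to Wls (0.95), a Wnt secretion factor at 529, 386 and 433 CPM. Among the 10 genes themselves the highest r was between Bcl2 and Apaf1 (0.91), and the lowest was between Mcl1 and Bcl2 (-0.79). Bcl2 (176 kb) and Apaf1 (93.5 kb) are the longest of the 10 and Mcl1 (4.39 kb) the shortest. The part of gene length in r was not tested.

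Of 17 other BCL2 family genes, 9 were measured in photon against control, with 2 higher and 0 lower, beside 16.8% of all genes called in either direction. In proton against control 8 were measured, with 1 higher and 1 lower, beside 29% of all genes. In photon these were Bok, a Bax relative, at 24.1 CPM against 14.2 CPM in control (1.69-fold, 1.53 to 1.88) and Bcl2l14 at 8.05 against 4.68 CPM. In proton they were the survival gene Bcl2l2 at 11.1 against 6.61 CPM (1.68-fold, 1.43 to 1.96) and the mitophagy receptor Bnip3 at 32.1 against 53.1 CPM (0.605 times, 0.563 to 0.650). Bid, whose product links death receptors to mitochondria, stood at 18.2 CPM in proton and 12.3 CPM in control, a ratio of 1.47.

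Among 13 caspase, cytochrome c and caspase inhibitor genes, 3 of 12 measured were higher and 0 lower in photon, where 7.37% of all genes were higher and 9.45% lower. In proton 3 of 13 were higher and 2 lower, where 14.2% of all genes were higher and 14.9% lower. Birc5, which encodes the mitotic protein survivin, stood at 14.2 (control), 63.7 (photon) and 30.2 CPM (proton), and the summed cycling markers stood at 42.6, 204 and 178 CPM. In proton Casp6 was at 13.7 against 33.6 CPM in control (0.408 times, 0.367 to 0.452) and the mitochondrial protease gene Htra2 at 14.3 against 22.4 CPM (0.637 times).

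On the death receptor side 10 of 12 genes were measured, and in each irradiated library 2 were higher than control and 0 lower, beside 16.8% of all genes called in photon and 29% in proton. They were the TRAIL receptor gene Tnfrsf10b, at 4.18 CPM in control, 9.37 CPM in photon (2.24-fold, 1.87 to 2.70) and 12.8 CPM in proton (3.07-fold, 2.57 to 3.69), and its ligand gene Tnfsf10, at 2.63, 9.18 and 9.43 CPM. Fas, at 0.798 and 0.826 times control, was on the other side of control from Tnfrsf10b. Of 13 measured genes in the list of p53 and its death-linked targets, 5 were higher and 0 lower in photon. In proton 5 were higher and 1 lower. Of all genes, 7.37% were higher and 9.45% lower in photon, and 14.2% were higher and 14.9% lower in proton. Cdkn1a was 1.99-fold and the cyclin gene Ccng1 1.71-fold higher in photon. In proton Zmat3 was 2.49-fold and Eda2r 2.26-fold higher, and Perp, an adhesion and death gene, stood at 0.635 times control. The median log2 ratios of that list over control were 0.53 in photon and 0.46 in proton, beside -0.12 and 0.03 for all genes.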

How the data were processed

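UMIs were counted in 3 single-cell libraries, 1 per group. The authors deposited raw UMI counts per gene and barcode. Per the submitters' processing notes they came from Cell Ranger 7.0.1 with mm10, while the file headers name version 7.0.0. The annotation release, barcode filter, intron setting and strand setting were not given in the sources used here. Cells with at least 500 genes and at most 20% mitochondrial UMIs were kept, counts were summed per library or gate and divided by the summed UMIs (CPM), and doublets were not removed. Ratios carry exact 95% Poisson intervals (conditional binomial, Clopper-Pearson), CPM exact Poisson intervals, shares of cells Clopper-Pearson intervals and the survival to death quotient an exact conditional odds ratio interval. Python 3.11.15 and scipy 1.17.1 were used, and the ratio step was tested on simulated data. Gene positions and lengths are from GENCODE M21 (GRCm38). The genes and lists were chosen with earlier results of these data known. From each other list the 2 highest and 2 lowest ratios could be named, and for each gene the 3 most alike genes. Alternatives changed the cell filter, scaling, weights of cells and classes, gene length, doublets, shared barcodes, fold and level thresholds and gates.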

Additional observations from a re-analysis of the deposited data

How the results depend on the processing

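Counted in both directions together, the genes past 1.5-fold stayed within 1.5 times of the reported number under each cell filter, the total without mitochondrial and ribosomal protein genes, equal weights of cells or marker classes, and both other level thresholds. By direction, the 4 genes higher in proton over photon became 2 on scaling by the median of gene ratios, with equal cells and with equal classes, and the 3 lower became 1 at a mean of 25 CPM. In proton over control the 1 lower became 3 at a fold of 1.3. For photon over control 2 genes passed on scaling by the median of gene ratios, 2 at a fold of 1.3 and 0 at a fold of 2. At a fold of 2 the counts were 1 in proton over control and 1 in proton over photon, and with ratios centred by gene length 0 passed in proton over photon. Leaving Mcl1 out gave survival to death quotients of 0.731 in photon, 1.35 in proton and 1.85 in proton over photon, so both proton values lay on the other side of 1. The quotients were not centred by gene length. Of the 50 gate-by-gene ratios 11 passed 1.5-fold in photon over control, 6 higher and 5 lower. With gates at 1 UMI 5 passed, 4 higher and 1 lower. With gates at 5 UMIs, where control cells are few, 25 passed, 13 higher and 12 lower. The share of all genes past 1.5-fold within gates is not given here, so these counts have no background. For single genes 205 of 270 recomputed ratios lay inside the counting interval, 65 outside and 0 of those called changed sign, while 22 crossed the 1.5-fold line. Scaling by the median of gene ratios shifted the all-gene median from -0.12 to 0.02 (log2) in photon over control and from 0.12 to -0.03 in proton over photon. It moved the share of called genes that were higher from 43.8% to 68.6% and from 61.4% to 39.8%, and centring by length moved it to 63.6% and 42.1%. No paired analysis was possible because each group holds 1 library. Counting error limits the Top2a and Vim gates of control most.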
